A study of Mus musculus with 36 samples.

Results

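The HoxB cluster is a row of homeobox genes on mouse chromosome 11, and its level and chromatin were examined here in mesenchymal stem cells (MSCs) from 4 tissues. The members were taken by gene symbol: Hoxb1 to Hoxb9 and Hoxb13, which are 10 of the 24411 genes listed in the RNA-seq files, and all 10 were found. Hox genes encode transcription factors that give cells of the trunk a position along the head-to-tail axis. Genes at the 3′ end of a cluster (low numbers) are used further forward in the embryo and those at the 5′ end (high numbers) further back. Cultured stromal cells often keep the Hox pattern of the place they came from, and a silent Hox cluster is typically covered by Polycomb proteins and closed to transposase.

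The cells came from young adult C57BL6/J mice, and the labels give no transgene or treatment. Femoral bone marrow (fBM-MSCs) and vertebral bone marrow (vBM-MSCs) were taken from crushed bone, whereas adipose tissue (A-MSCs) and lung (P-MSCs) were minced and digested with collagenase. All were grown on collagen I in MesenCult medium with MesenPure and a Rock inhibitor for a few passages, so every group was a culture and not a sorted population. RNA-seq covered 3 fBM-MSC, 2 vBM-MSC, 3 A-MSC and 3 P-MSC libraries (a further vBM-MSC library was not analysed here), and ATAC-seq, which cuts and tags open chromatin with a transposase, gave 1 pooled peak list per tissue. The 4 tissues were taken from the same mice, but the labels do not tie a library to a mouse, so p-values measure the spread between these 11 libraries.

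The 11 RNA-seq libraries held 19569650 to 40517739 expected counts, the fewest in fBM-MSC replicate 1. The summed level of 4 markers that MSCs should carry (Itgb1, Cd44, Ly6a and Vcam1) lay between 982.69 and 2335.92 TPM (transcript level scaled for gene length and library depth) in every library. Markers of other cells moved with the tissue. Of the 3 markers that MSCs should lack, only Cd34 stood out, and its list summed to 10.26 to 79.19 TPM in fBM-MSCs and to 1.19 to 7.87 TPM elsewhere. The 6 mesothelial markers summed to 2.32 to 14.65 TPM in fBM-MSCs, 18.89 to 23.87 in the vBM-MSC libraries, 105.26 to 153.62 in A-MSCs and 76.18 to 98.82 in P-MSCs, with Wt1 and Lrrn4 at 0 counts outside A-MSCs. Of the 4 muscle markers only Acta1 was found (Myod1, Myog and Myf5 had 0 counts), at 8.54 to 19.26 TPM in fBM-MSCs and 54.53 to 1027.94 elsewhere. The 6 macrophage markers summed to 13 to 19.11 TPM in fBM-MSCs and 2.03 to 12.46 elsewhere, with Adgre1, Itgam and C1qa at 0 in both marrow tissues. Nearly all of the fBM-MSC sum was Cd68 (12.27 to 18.47 TPM). Csf1r went the other way, with 0.60 to 0.89 TPM in fBM-MSCs, 5.46 to 6.56 in A-MSCs and 2.21 to 2.76 in P-MSCs. Endothelial markers reached 51.46 TPM in A-MSCs and 8.10 elsewhere, and epithelial and erythroid markers stayed at or below 9.46. The part of these cells in the HoxB values was not tested, and in cultures of this kind fewer cells that express a gene and less RNA per cell cannot be told apart.

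All coordinates are mm10 (GRCm38), and all members lie on the plus strand, from Hoxb13 at chr11:96194316-96196610 to Hoxb1 at chr11:96365758-96368253. Hoxb13 sits 74.7 kb from its nearest neighbour Hoxb9 (chr11:96271330-96276595), after which Hoxb8, Hoxb7, Hoxb6, Hoxb5, Hoxb4, Hoxb3, Hoxb2 and Hoxb1 follow closely. Each has 2 annotated exons except Hoxb3, which has 2 curated transcripts and 5 exons and spans 24805 bases. A pair of sequences is shown: one lies beside a start that was open in some tissues and not in others, and one holds the only site open in all 4. Capitals mark matches, on either strand and with overlaps allowed, to TGACAG (the Meis type), TGATNNAT (the Pbx-Hox type), TAATTA (the homeodomain core), TTTATG (the Cdx and posterior Hox type) and AGGTCA (a nuclear receptor half-site). The first is the 200 bases just before the annotated start of Hoxb6, and the other is 201 bases around a summit in an intron of the non-coding gene Gm53, between Hoxb13 and Hoxb9.
Hoxb6 upstream, chr11:96298874-96299073, plus strand: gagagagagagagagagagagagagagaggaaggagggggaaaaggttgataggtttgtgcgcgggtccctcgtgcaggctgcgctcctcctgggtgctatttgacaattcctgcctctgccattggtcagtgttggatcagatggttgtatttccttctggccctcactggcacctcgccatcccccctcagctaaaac
Gm53 intron, chr11:96260371-96260571, plus strand: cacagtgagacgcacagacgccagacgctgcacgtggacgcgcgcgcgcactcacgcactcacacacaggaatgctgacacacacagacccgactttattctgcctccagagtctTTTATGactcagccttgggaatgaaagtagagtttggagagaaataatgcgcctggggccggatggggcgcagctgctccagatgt

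The Hoxb6 stretch held none of the 5 motifs, of which TGACAG was present in 12.2% and AGGTCA in 10.2% of the 200-base windows before 27095 curated starts of chromosomes 1 to 19. The Gm53 intron held TTTATG at position 116 (counted from 1 at the left end), as did 8.6% of 59536 windows of equal length around vBM-MSC summits. These matches are descriptions of letters and not of bound factors.

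The cluster was low in fBM-MSCs and present in the other 3 tissues. The TPM of the 10 members summed to 7.31 ± 8.04 in fBM-MSCs (SD, n = 3), 87.0 ± 19.2 in vBM-MSCs (n = 2), 48.5 ± 11.7 in A-MSCs (n = 3) and 61.9 ± 4.63 over the P-MSC libraries (n = 3). The fBM-MSC libraries ran from 1.96 to 16.56 and lay below all others, the lowest of which held 36.96. fBM-MSCs had the lowest mean for all 9 members with any count. The highest mean was in vBM-MSCs for Hoxb6, Hoxb7 and Hoxb9, in A-MSCs for Hoxb2, and in P-MSCs for Hoxb3, Hoxb4, Hoxb5, Hoxb8 and Hoxb13. These orders were identical with medians and with CPM per kilobase. In TPM, the 3 fBM-MSC libraries lay below all 8 others in 7 of the 9 members, all but Hoxb9 and Hoxb13. Among the 7 members that passed the filter on low counts this held for 6, against 9.09% of the 12509 genes tested. For Hoxb3 it rested on 0.16 against 0.17 TPM. In CPM, fBM-MSC replicate 3 (0.35) was above A-MSC replicate 1 (0.346) for that gene.

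**Figure D1:**
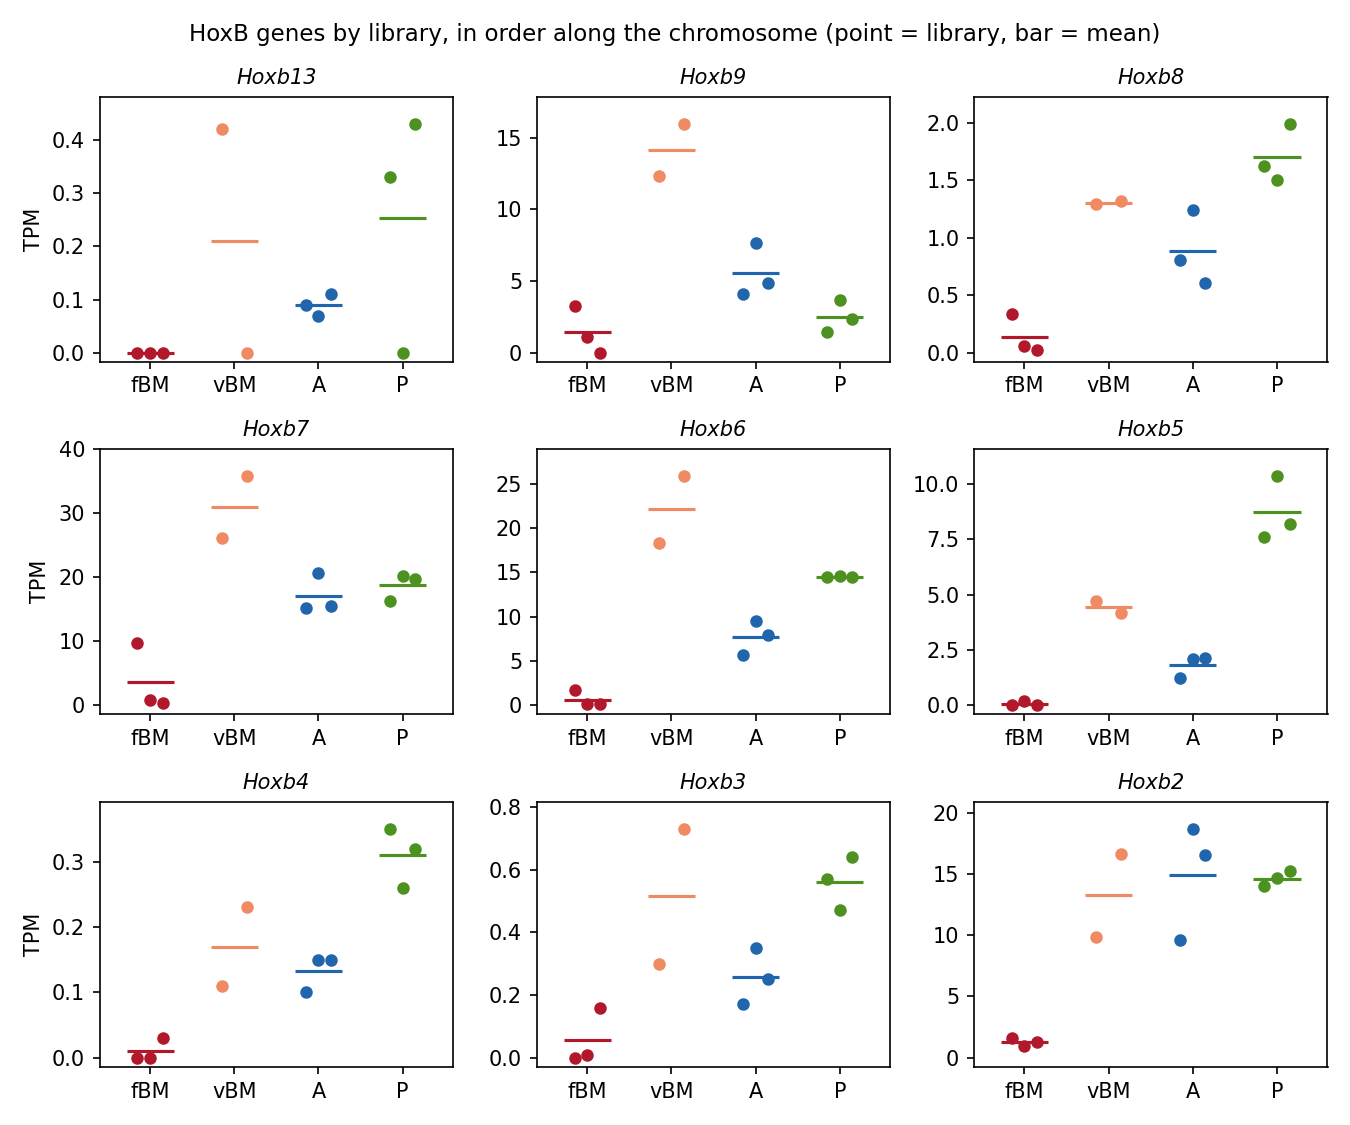
TPM of the 9 HoxB genes with any count, in order along the chromosome; each point is 1 library (fBM 3, vBM 2, A 3, P 3) and each bar a tissue mean, with a separate linear axis per gene. The fBM points lie at the bottom of every panel except that of Hoxb9, where P-MSC libraries of 1.47 to 3.67 TPM overlap them, and that of Hoxb13, where 1 vBM-MSC and 1 P-MSC library are also at 0. In the Hoxb3 panel the highest fBM point (0.16 TPM) nearly meets the lowest A-MSC point (0.17).

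The makeup of the cluster was set side by side for the tissue means. Hoxb7 made up 49.7% of the summed mean level in fBM-MSCs, 35.5% in the vBM-MSC libraries, 35.3% in A-MSCs and 30.3% for P-MSCs, which was the highest share in each. In fBM-MSCs this rested on replicate 1, with Hoxb9 the most abundant member in replicate 2 and Hoxb2 in replicate 3. In A-MSC replicate 3 Hoxb2 (34.3%) was also above Hoxb7 (32.2%). Hoxb9 took 16.3% in vBM-MSCs and 4.0% in P-MSCs, whereas Hoxb5 took 5.1% and 14.1%. Hoxb3, Hoxb4 and Hoxb13 each took under 1% in every tissue. These shares were not tested.

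At the 3′ end of the cluster, Hoxb1, a gene of the early hindbrain, had 0 expected counts in all 11 libraries, which at the floor of 3 counts allows up to 0.0740 to 0.1533 CPM depending on the library. Hoxb2, also known from the hindbrain, was the only 3′ member with a high level. Its TPM was 1.61, 0.99 and 1.30 in the fBM-MSC libraries, 9.86 and 16.63 in the vBM-MSC libraries, 9.63, 18.67 and 16.51 in A-MSCs and 14.00, 14.65 and 15.20 in the P-MSC libraries. The 3 fBM-MSC libraries were close together and far below all others, while the other 3 tissues overlapped. Against fBM-MSCs the log2 fold change (always fBM-MSC minus the other tissue, in the edgeR quasi-likelihood fit with Benjamini-Hochberg adjustment over all genes tested) was -3.29 ± 0.33 for vBM-MSCs (SE, adjusted p = 0.000178), -3.61 ± 0.31 for A-MSCs (adjusted p = 9.62e-06) and -3.37 ± 0.31 for P-MSCs (adjusted p = 7.8e-06). Hoxb2 and Hoxb3 overlap the antisense gene Hoxb3os, and the libraries were not stranded, so sense and antisense reads cannot be told apart there.

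Hoxb3 and Hoxb4, neighbours that are used in the hindbrain and neck and in blood progenitors, were at the edge of detection. Hoxb3 held 0, 1 and 13 expected counts in fBM-MSCs, 19 and 55 in the vBM-MSC libraries, 11, 30 and 20 in A-MSCs and 51, 32 and 49 in the P-MSC libraries. It was called lower in fBM-MSCs than in P-MSCs (log2 fold change -2.99 ± 1.02, adjusted p = 0.0300) and not against vBM-MSCs (-2.91 ± 1.07, adjusted p = 0.0996) or A-MSCs (-2.04 ± 1.0, adjusted p = 0.125) by edgeR. The P-MSC call was lost (adjusted p up to 0.0879) without fBM-MSC replicate 1 or 2 or without any one P-MSC replicate. Without fBM-MSC replicate 3, which held 13 of the 14 fBM-MSC counts, the fitted fold changes were larger (-5.66 to -4.71), depending on the prior count with 1 fBM-MSC count left, and Hoxb3 was called in all 3 comparisons. The transcript length that RSEM assigned to Hoxb3 was 3313 bases in 6 libraries and up to 3390 in the other 5. Hoxb4 held 0, 0 and 2 counts in fBM-MSCs, 5 and 13 in the vBM-MSC libraries, 5, 10 and 9 in A-MSCs and 23, 13 and 18 in the P-MSC libraries, and it did not pass the filter. Pooled over libraries, the 2 fBM-MSC counts put Hoxb4 22.6-fold lower than in P-MSCs (95% exact interval 5.95 to 191, counting error only), 12.1-fold lower than in vBM-MSCs (2.9 to 108) and 9.74-fold lower than in A-MSCs (2.42 to 85). In the fit without that filter it was called lower in fBM-MSCs than in P-MSCs (-4.29 ± 1.59, adjusted p = 0.0483, edgeR), with adjusted p = 0.232 against vBM-MSCs and 0.132 against A-MSCs.

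The middle members showed the widest differences. Hoxb5, which acts in the neck, shoulder and lung region, had 0, 0.19 and 0 TPM in the fBM-MSC libraries (0, 7 and 0 expected counts), 4.70 and 4.19 in the vBM-MSC libraries, 1.23, 2.11 and 2.14 in A-MSCs and 7.59, 10.35 and 8.22 in the P-MSC libraries. No tissue overlapped another. In edgeR the log2 fold change was -5.95 ± 0.79 against vBM-MSCs (adjusted p = 0.000893), -4.77 ± 0.76 against A-MSCs (adjusted p = 0.000541) and -6.83 ± 0.78 against P-MSCs (adjusted p = 3.41e-05). Without fBM-MSC replicate 2 the remaining fBM-MSC libraries held no Hoxb5 counts, and the fitted fold changes (-11.29 to -9.25) then depend on the prior count.

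Hoxb6, its 5′ neighbour, showed a similar drop with a different order above it. Its TPM was 1.67, 0.13 and 0.11 in fBM-MSCs, 18.37 and 25.83 in the vBM-MSC libraries, 5.71, 9.49 and 7.96 in A-MSCs and 14.48, 14.55 and 14.44 in the P-MSC libraries. Again the 4 tissues did not overlap, with vBM-MSCs on top. The log2 fold change was -5.27 ± 0.78 against vBM-MSCs (adjusted p = 0.00170), -3.89 ± 0.73 against A-MSCs (adjusted p = 0.00149) and -4.60 ± 0.74 against P-MSCs (adjusted p = 0.000378) by edgeR. Without fBM-MSC replicate 1, which stood well above its 2 fellows, they were -7.47, -6.09 and -6.79, and over all 11 fits that left out a library they reached at most -4.69, -3.30 and -4.01, all called. Hoxb5 and Hoxb6 both lie within the antisense gene Hoxb5os, whose own level is given further on.

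Hoxb7, used in the thoracic region and in the limb bud, was the most abundant member by mean TPM. Its TPM was 9.66, 0.90 and 0.34 in fBM-MSCs, 26.06 and 35.75 in the vBM-MSC libraries, 15.13, 20.73 and 15.50 in A-MSCs and 16.31, 20.22 and 19.67 in the P-MSC libraries. fBM-MSC replicate 1 stood well above its 2 fellows but below every library of the other tissues. The log2 fold change was -3.09 ± 0.89 against vBM-MSCs (adjusted p = 0.0422), -2.37 ± 0.83 against A-MSCs (adjusted p = 0.0387) and -2.30 ± 0.82 against P-MSCs (adjusted p = 0.0382, edgeR). These calls were fragile. Without fBM-MSC replicate 1 they were -5.64, -4.92 and -4.84, with adjusted p of 3.93e-05, 8.65e-06 and 5.06e-06, and leaving out any one of 8 or 9 of the 11 libraries took the adjusted p above 0.05, at most to 0.112, 0.109 and 0.110.

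Hoxb8, a gene of the lower thorax, was scarce but followed the same pattern. Its TPM was 0.34, 0.06 and 0.02 in fBM-MSCs, 1.29 and 1.32 in the vBM-MSC libraries, 0.81, 1.24 and 0.61 in A-MSCs and 1.62, 1.5 and 1.99 in the P-MSC libraries. P-MSCs lay above all other libraries and fBM-MSCs below. The log2 fold change was -3.33 ± 0.90 against vBM-MSCs (adjusted p = 0.0329), -2.88 ± 0.85 against A-MSCs (adjusted p = 0.0183) and -3.63 ± 0.86 against P-MSCs (adjusted p = 0.00475, edgeR). Leaving out 1 library ended the first call (adjusted p up to 0.109) for fBM-MSC replicate 2, either vBM-MSC replicate or any P-MSC replicate, and the second (up to 0.0665) for fBM-MSC replicate 2 or A-MSC replicate 2. The P-MSC call held in all 11 such fits. The log2 fold changes without fBM-MSC replicate 1 were -5.13, -4.68 and -5.43, the lowest of these fits, and the highest were -2.73, -2.29 and -3.03.

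At the 5′ end the pattern changed. Hoxb9, a gene of the thoracic and lumbar region, had 3.28, 1.13 and 0 TPM in fBM-MSCs, 12.33 and 15.96 in the vBM-MSC libraries, 4.09, 7.64 and 4.89 in A-MSCs and 1.47, 3.67 and 2.33 in the P-MSC libraries. The 2 vBM-MSC libraries were the highest of all, and P-MSCs overlapped fBM-MSCs. fBM-MSC replicate 3 had no Hoxb9 count in 37180657, while replicate 1 had 109 in the shallowest library. By edgeR the log2 fold change of fBM-MSC minus vBM-MSC was -3.26 ± 1.01 (adjusted p = 0.0553), minus A-MSC -2.03 ± 0.93 (adjusted p = 0.102) and minus P-MSC -0.67 ± 0.92 (adjusted p = 0.572), so none was called. vBM-MSC minus P-MSC was 2.59 ± 0.97 (adjusted p = 0.0545), and it passed without fBM-MSC replicate 1 or 3 (adjusted p as low as 0.00107). The first 2 differences also passed without fBM-MSC replicate 1 or 3, with adjusted p down to 0.0102 and 0.0175. The log2 fold changes were -4.67, -3.44 and -2.08 without fBM-MSC replicate 1 and -2.64, -1.41 and -0.05 without replicate 3.

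Hoxb13, the most posterior gene of the cluster and a gene of the tail and prostate, was near absent. It had 0 counts in the 3 fBM-MSC libraries, 9 and 0 in the vBM-MSC libraries, 2, 2 and 3 in A-MSCs and 10, 0 and 11 in the P-MSC libraries. Against the floor of 3 counts over the 3 fBM-MSC libraries it was at least 4.03-fold higher in vBM-MSCs, 1.89-fold in A-MSCs and 5.85-fold in P-MSCs, but 1 vBM-MSC and 1 P-MSC library had none either. It did not pass the filter, and in the fit without the filter edgeR gave adjusted p of 0.267, 0.230 and 0.125 for fBM-MSCs against vBM-MSCs, A-MSCs and P-MSCs.

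**Figure D2:**
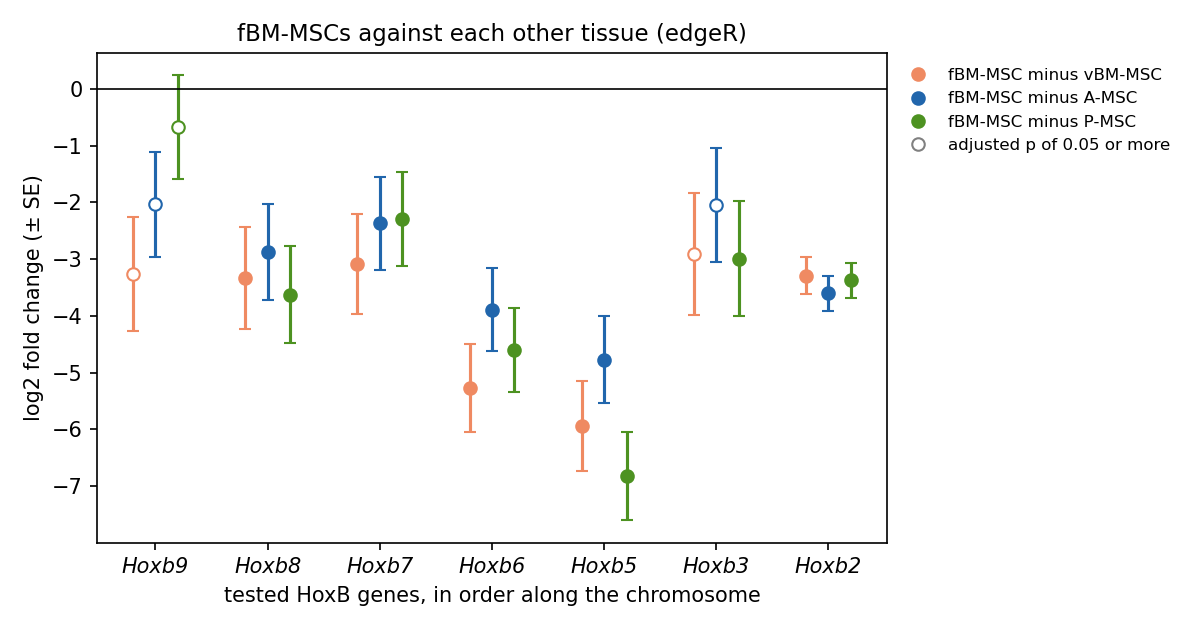
Log2 fold change of fBM-MSC minus each other tissue (points, with SE bars) for the 7 tested HoxB genes in order along the chromosome; open points have an adjusted p of 0.05 or more. Every point is below 0, the lowest for Hoxb5 and Hoxb6, and the 3 points of Hoxb2 (-3.61 to -3.29) have the shortest bars.

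Counted over the cluster, the comparison of femur and vertebra asks whether marrow from different bones keeps a different Hox state. Of the 7 tested members 5 (Hoxb2, Hoxb5, Hoxb6, Hoxb7 and Hoxb8) were lower in fBM-MSCs than in vBM-MSCs and none higher, while 7.56% of the 12509 genes were lower in fBM-MSCs (edgeR, adjusted p under 0.05). The median log2 fold change was -3.29 over the members and 0.02 over all genes. The count fell to 3 without fBM-MSC replicate 2, without either vBM-MSC replicate or without any P-MSC replicate, was 7 without fBM-MSC replicate 3, and was 1 of 6 when only these 5 libraries were fitted (1.71% of all genes). With the replicate number as a block it was 3 (Hoxb2, Hoxb5 and Hoxb6), with Hoxb7 and Hoxb8 at adjusted p of 0.0566 and 0.0568. Hoxb2, Hoxb5 and Hoxb6 were called in all 11 fits that left out a library. The members were lower in fBM-MSCs also against the tissues outside marrow: 5 against A-MSCs (median -2.88; 20.3% of all genes were lower) and 6 against P-MSCs (median -3.37; 23.0% of all genes). The former count was 3 without fBM-MSC replicate 2 or A-MSC replicate 2, and the latter 4 without fBM-MSC replicate 2 or any P-MSC replicate. These 3 comparisons share the fBM-MSC libraries. Over all 4 tissues at once, 5 of 7 members were called (Hoxb2, Hoxb5, Hoxb6, Hoxb8 and Hoxb9), a share near the 60.6% of all genes. Without fBM-MSC replicate 2 it was 3 of 7, and with the replicate block 4.

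The other 3 tissues were told apart by few members in the fit of all libraries. With only the 2 tissues compared in the fit, edgeR called 3 of 6 members between vBM-MSCs and A-MSCs (21.3% of all genes in either direction), 4 of 7 between vBM-MSCs and P-MSCs (42.4%) and 3 of 7 between A-MSCs and P-MSCs (44.7%), the last a share near that of all genes. Between vBM-MSCs and A-MSCs edgeR called 0 of 7 members (25.6% of all genes were called in either direction). No member reached an unadjusted p under 0.05 and DESeq2 called 0, whereas limma on log2(TPM + 1) called 2 as higher in vBM-MSCs and on log2(TPM + 0.1) 0. Without fBM-MSC replicate 1 or 2 edgeR called 1. Between vBM-MSCs and P-MSCs it also called 0 of 7 (38.7% of all genes), with Hoxb9 alone at an unadjusted p under 0.05, 0 calls by DESeq2, and 2 or 0 by limma with a pseudocount of 1 or 0.1. Without fBM-MSC replicate 1 there were 3 calls, all higher in vBM-MSCs, and without fBM-MSC replicate 3 there was 1. The SEs of these log2 differences were 0.30 to 1.01, so differences of a few-fold were within the error for most members. Between A-MSCs and P-MSCs only Hoxb5 was called, lower in A-MSCs (log2 fold change -2.05 ± 0.56, adjusted p = 0.0175; 14.9% of all genes were lower in A-MSCs), and not without A-MSC replicate 1 or P-MSC replicate 2 or 3 (adjusted p up to 0.0722). Without fBM-MSC replicate 1 or 3 there were 2 calls.

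The study set bone marrow against non-bone marrow sources. In that contrast, the mean of both marrow tissues minus the mean of A-MSCs and P-MSCs, 4 of 7 members were lower in marrow by edgeR and 22.4% of all genes were: Hoxb2 (-1.84 ± 0.22, adjusted p = 4.55e-05), Hoxb5 (-2.83 ± 0.51, adjusted p = 0.000778), Hoxb6 (-1.61 ± 0.49, adjusted p = 0.0188) and Hoxb8 (-1.59 ± 0.60, adjusted p = 0.0465). All 4 were also called between the 2 marrow tissues, which this contrast averages. Without vBM-MSC replicate 1 it called 2, and Hoxb8 was called in only 1 of the 11 fits that left out a library. For Hoxb6 and Hoxb8 the log2 fold changes were -2.70 and -2.49 without fBM-MSC replicate 1, and over the other fits they reached -1.31 and -1.29. That of Hoxb5 ran from -5.06 to -2.48, the lowest without fBM-MSC replicate 2, where no fBM-MSC count was left and the value depends on the prior count.

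ATAC-seq gave a second readout of the cluster, with 1 peak list per tissue and therefore no replicates and no test. Summits with −log10 q of at least 7, the limit used by the study, numbered 59536 to 71345 per list. The window from 10 kb before Hoxb13 to 10 kb after Hoxb1 (chr11:96184316-96378253) held 18 such summits in the vBM-MSC list, 11 in A-MSCs, 11 in P-MSCs and 1 in fBM-MSCs. They lay in 15, 10, 11 and 1 regions, covering 9375, 5018, 4725 and 374 bases, with a mean fold enrichment of 7.73, 7.99, 7.59 and 8.46. fBM-MSCs thus had a single accessible site over the cluster at that limit. As deposited, without the limit, the fBM-MSC list held 7 summits there and the others 32 to 38.

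That single site was the Gm53 intron shown above, at -10.86 kb from the start of Hoxb9. Its fold enrichment was 8.46 in fBM-MSCs, 15.82 in the vBM-MSC list, 11.40 in A-MSCs and 11.04 in the P-MSC list, and it was the only one of 20 merged regions open in all 4 tissues. Of the 20, 19 were not open in fBM-MSCs and none was open in fBM-MSCs alone. Neighbouring regions in Gm53, at -18.53 and -9.55 kb from Hoxb9, were open in vBM-MSCs (8.46 and 7.36) and A-MSCs (6.99 and 7.73) and below the limit in the others.

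**Figure D3:**
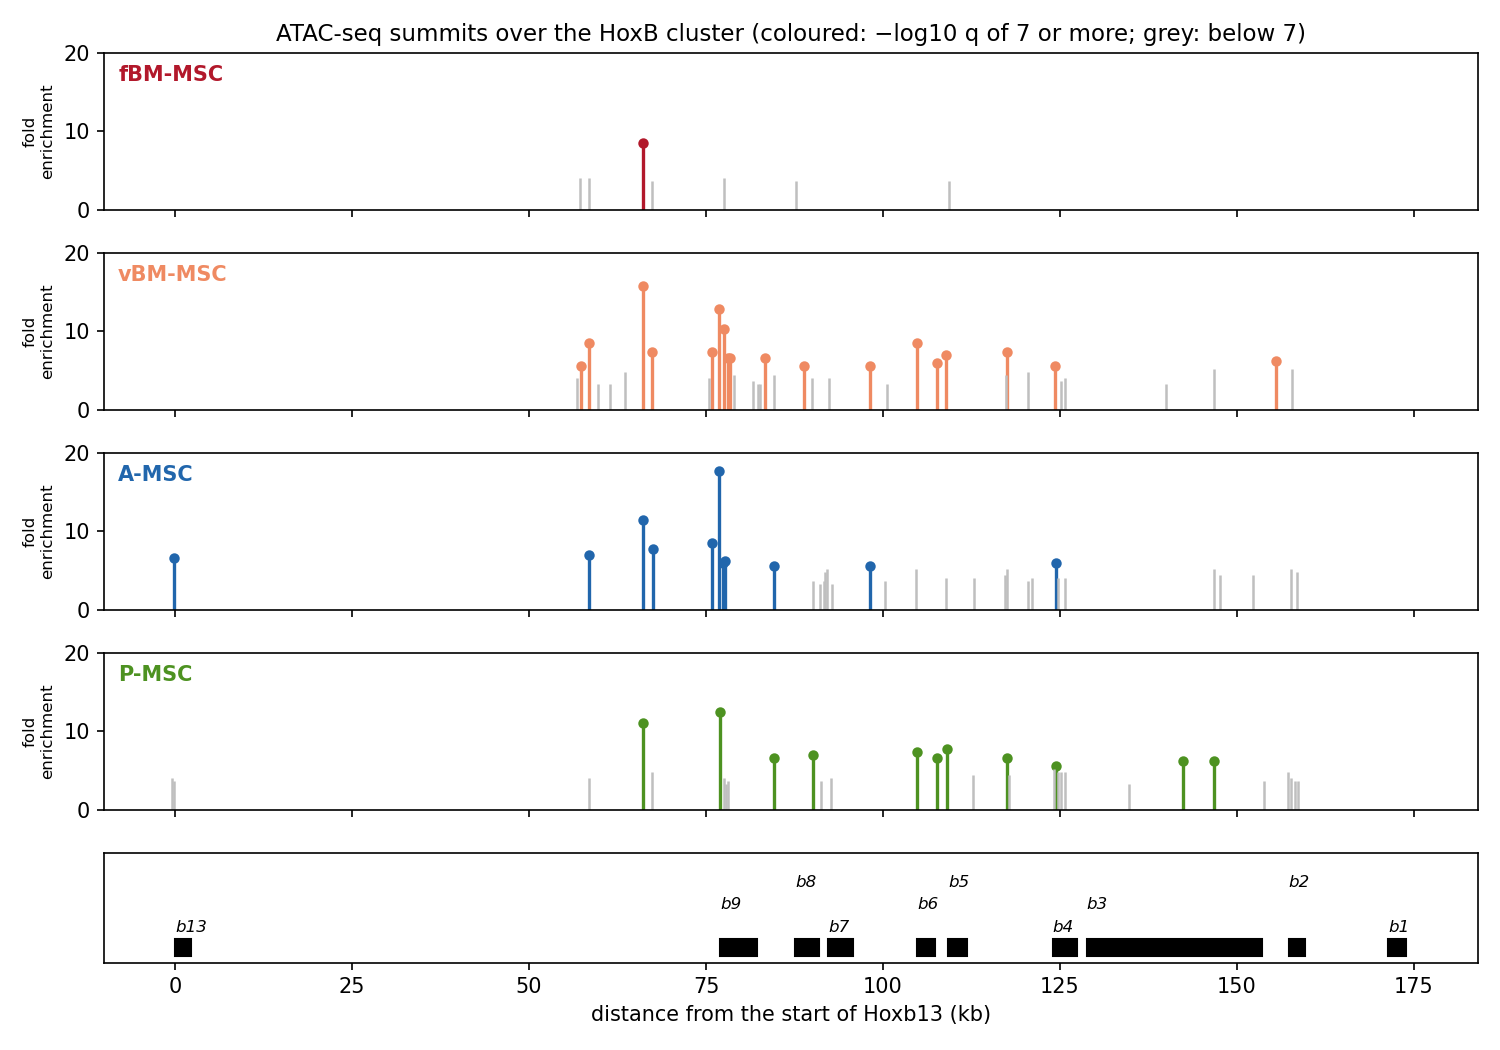
Fold enrichment of each ATAC-seq summit over the HoxB cluster in the 4 pooled peak lists, against the distance from the start of Hoxb13 in kb, with the genes as boxes; coloured stems have −log10 q of at least 7 and grey stems less. The fBM-MSC row has 1 coloured stem, at the Gm53 intron, whereas the other rows have 11 to 18 coloured stems, nearly all between Gm53 and Hoxb2.

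At the annotated starts, the fBM-MSC list had a summit within 1 kb for 0 of 10 members, against 52.4% of 22013 genes with a curated start. The vBM-MSC list had one for 4 members (53.4% of all genes), the A-MSC list for 3 (54.4%) and the P-MSC list for 4 (53.4%). All 4 lists thus covered a similar share of all starts, and no HoxB count exceeded 4 of 10. Hoxb9 had the strongest start in each tissue outside the femur: a summit at -130 bases from it in A-MSCs (fold enrichment 17.66), at -133 in vBM-MSCs (12.88) and at -107 in P-MSCs (12.51). In fBM-MSCs a summit below the limit lay 586 bases after the start, with a fold enrichment of 4.05. The merged open region there was the widest of the cluster, 2526 bases, and reached from upstream sequence into the coding exon. The ranges of Hoxb9 RNA in P-MSCs and fBM-MSCs nevertheless overlapped.

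Hoxb6 and Hoxb5 were open at the start in vBM-MSCs and P-MSCs only, at this limit. At Hoxb6 the summit lay 8 bases after the start in vBM-MSCs (8.46) and 31 after it in P-MSCs (7.36), with 5.15 in A-MSCs (−log10 q of 6.33) and no summit in fBM-MSCs. At Hoxb5 it lay at -222 bases from the start in vBM-MSCs (6.99) and at -180 in P-MSCs (7.72), with 4.05 in A-MSCs and 3.68 in fBM-MSCs, both below the limit. The same pair of tissues shared 2 more regions, at -1.49 kb from Hoxb5 (5.89 and 6.62) and at chr11:96311515-96312098 between Hoxb5 and Hoxb4 (7.36 and 6.62). vBM-MSCs and P-MSCs were also the tissues with the highest mean RNA of Hoxb5 and Hoxb6. The Hoxb4 start was open in the 3 tissues other than fBM-MSCs (5.52 in the vBM-MSC list, 5.89 in A-MSCs and 5.52 in the P-MSC list), although Hoxb4 RNA did not exceed 0.35 TPM in any library.

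The remaining starts had few summits at the limit. Hoxb7, the member with the most RNA, had no summit at the limit within 1 kb in any list (4.05 in the vBM-MSC list, 5.15 in A-MSCs and 4.05 in the P-MSC list below it), and neither did Hoxb2 (5.15, 5.15 and 4.78), Hoxb8, Hoxb3 or Hoxb1. In fBM-MSCs neither Hoxb7 nor Hoxb2 had any summit within 1 kb, and Hoxb1, without RNA in any library, had none in any list. Hoxb8 had one in the fBM-MSC list alone, below the limit (3.68, 92 bases after the start). The Hoxb13 start was open in A-MSCs alone (6.62, at -113 bases from the start), where 2 or 3 counts per library were found. The exact fold enrichments were not compared beyond these values, because 1 list per tissue gives no error.

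Other transcripts of the cluster were followed from a list of 10, of which 8 were in the files and 3 were tested. Hoxb5os, which runs antisense through Hoxb5 and Hoxb6, had 0.23, 0 and 0 TPM in fBM-MSCs, 16.26 and 13.20 in the vBM-MSC libraries, 2.80, 6.33 and 2.91 in A-MSCs and 13.27, 8.40 and 14.96 in the P-MSC libraries. It was the only one of the 3 called lower in fBM-MSCs than in vBM-MSCs (adjusted p = 0.000847, edgeR). The fBM-MSC libraries held 1 count of it in all and the vBM-MSC libraries 203, a pooled ratio of 273 (95% exact interval 48.4 to 10830, counting error only). Here too the libraries were not stranded, so sense and antisense reads cannot be told apart where transcripts overlap. Gm53, whose intron carries the site open everywhere, had 3.79, 1.46 and 0 TPM in fBM-MSCs, 6.60 and 7.64 in the vBM-MSC libraries, 0.73, 4.82 and 1.25 in A-MSCs and 0.68, 0.55 and 0.61 in the P-MSC libraries, and differed only between vBM-MSCs and P-MSCs (3.58 ± 1.31, adjusted p = 0.0494). The precursors Mir10a and Mir196a-1 had no counts, as RNA-seq from polyadenylated RNA does not measure them. Among 10 genes flanking the cluster, 6 were tested, 1 was lower in fBM-MSCs than in vBM-MSCs (Igf2bp1, an RNA-binding protein, -2.39 ± 0.39, adjusted p = 0.00312) and 1 higher (Nfe2l1, a stress-response factor, 0.61 ± 0.17, adjusted p = 0.0346). Of all genes 7.56% were lower and 5.24% higher. The median log2 fold change of the 6 was -0.04, and the other 4 were not called.

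Genes that act on Hox clusters were counted in the same femur against vertebra comparison, in which 7.56% of all genes were lower in fBM-MSCs and 5.24% higher. Of 17 Polycomb genes, which keep Hox clusters silent, 2 were higher in fBM-MSCs (Cbx6, 0.81 ± 0.18, adjusted p = 0.0146, and Ezh1, 0.71 ± 0.21, adjusted p = 0.0430) and none lower by edgeR. Of 6 genes of the trithorax group and the H3K27 demethylases, which oppose Polycomb, 2 were lower (Kdm6b, -1.14 ± 0.24, adjusted p = 0.0113, and Wdr5, -0.48 ± 0.14, adjusted p = 0.0418). Of 9 tested genes of retinoic acid signalling, which switches on 3′ Hox genes in the embryo, 4 were lower (Aldh1a3, Cyp26b1, Aldh1a1 and Rara) and 1 was higher (Aldh1a2, 2.11 ± 0.27, adjusted p = 0.000653). The Cdx genes, activators of the trunk Hox genes in the embryo, had no counts. The medians of the 3 lists were 0.07, -0.06 and 0.14. Against A-MSCs and P-MSCs, in which HoxB was also higher than in fBM-MSCs, the Polycomb genes went in both directions. Against A-MSCs 3 were lower in fBM-MSCs (Ezh2, Eed and Cbx2; 20.3% of all genes) and 2 higher (Cbx6 and Ezh1; 20.6%), and against P-MSCs 6 were lower (23.0%) and 3 higher (Ezh1, Cbx7 and Phc3; 24.7%), with Ezh2, the main H3K27 methyltransferase of dividing cells, at -2.79 ± 0.18 (adjusted p = 6.3e-07, edgeR). The trithorax list had 2 lower and 1 higher against A-MSCs and 3 lower and 0 higher against P-MSCs, and the retinoic acid list 4 lower and 3 higher, and 2 lower and 4 higher.

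**Figure D4:**
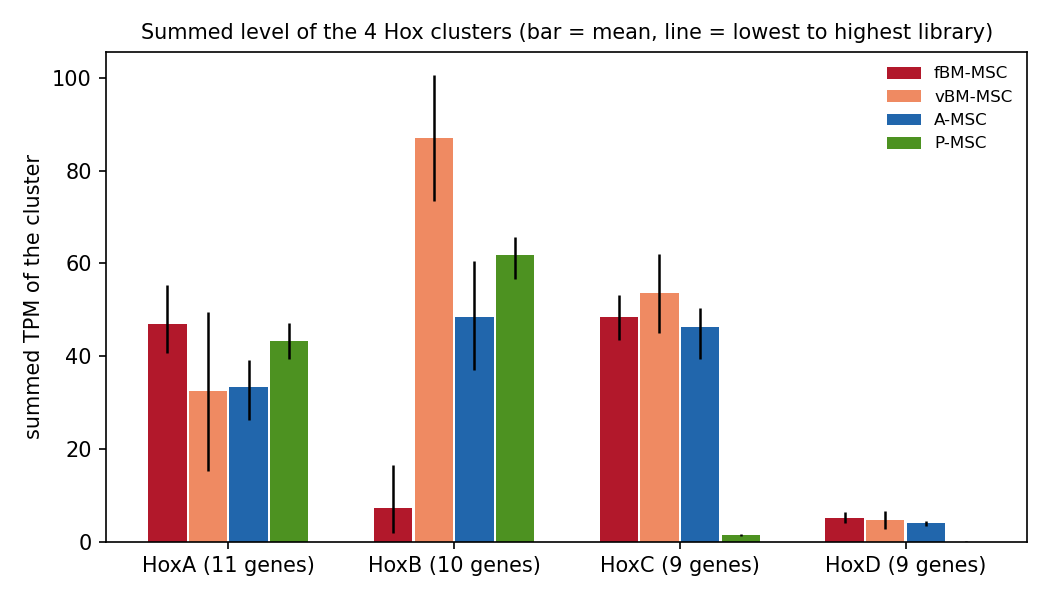
Summed TPM of the 4 Hox clusters by tissue (bars, mean of the libraries; lines, lowest to highest library). HoxB is the cluster in which fBM-MSCs are lowest (1.96 to 16.56, others 36.96 to 100.64), whereas P-MSCs are lowest for HoxC (1.2 to 1.62) and HoxD (0 to 0.19).

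The low level in femur was not shared by the whole of the other clusters. The 11 HoxA genes summed to 46.9 ± 7.56 TPM in fBM-MSCs (n = 3) and 32.5 ± 24.2 in vBM-MSCs (n = 2), and the 9 HoxC genes to 48.5 ± 4.94 and 53.6 ± 12, whereas HoxB stood at 7.31 and 87.0. Of 15 tested genes of HoxA, HoxC and HoxD in the paralog groups of the HoxB members, 7 were lower in fBM-MSCs than in vBM-MSCs (7.56% of all genes) and 1 was higher (5.24%), with a median of -1.05. Hoxa2 (-4.82 ± 0.92, adjusted p = 0.00717), Hoxa3 (-3.53 ± 0.66, adjusted p = 0.00646) and Hoxa5 (-2.92 ± 0.54, adjusted p = 0.00593), paralogs of Hoxb2, Hoxb3 and Hoxb5, were named after their values were seen. In lung the order was different: 9 of the 15 were higher in A-MSCs than in P-MSCs (16.0% of all genes were) and none lower. No HoxB gene was called higher in A-MSCs in the fit of all libraries, but Hoxb9 (log2 fold change 1.36) was called without fBM-MSC replicate 3 (adjusted p = 0.0291, edgeR) and with only these tissues in the fit (adjusted p = 0.00703). The HoxB window was also the one with the fewest accessible regions in fBM-MSCs, with 1 region against 14 at HoxA, 14 at HoxC and 8 at HoxD. In P-MSCs the HoxB window held 11 regions, against 17 at HoxA, 2 at HoxC and 1 at HoxD.

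Outside the Hox clusters, genes whose log2(TPM + 1) followed the mean of the 7 tested members closely over the 11 libraries included Klf2 (Pearson r = 0.976), Wtip (0.967), Ier5 (0.966) and Loxl1 (0.955). They were chosen for this likeness, so the r values are descriptions. Their levels were likewise lowest in fBM-MSCs, with a mean of 6.08 TPM for Klf2 there and 25.5, 19.9 and 21.7 in vBM-MSCs, A-MSCs and P-MSCs. The 11 points share tissues and are not independent.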

How the data were processed

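Expected counts, TPM and gene lengths were deposited per library by the authors, who aligned Smart-seq2 reads to mm10 with RSEM and STAR; the libraries were not stranded. Peak lists hold the ratio (fold enrichment) at each summit and its −log10 q, as deposited by the authors, who removed adaptors, blacklisted and duplicate reads, shifted reads for Tn5 and ran MACS2 without local background on reads pooled per tissue. Here expected counts were rounded, genes kept where 2 or more libraries reached 1 CPM (12509 of 24411), TMM-scaled (factors 0.913 to 1.11) and tested with edgeR 4.0.16 quasi-likelihood F tests over all 11 libraries, with Benjamini-Hochberg adjustment; limma 3.58.1 and DESeq2 1.42.0 in R 4.3.3 served as alternatives. On simulated counts for fBM-MSCs against P-MSCs, 80.5% of 200 genes changed 4-fold were recovered with 3.01% false calls (12222 genes), and for vBM-MSCs against P-MSCs 75.5% with 6.79% (12264 genes). No 2 replicates were duplicates. Regions were merged over tissues at 1 base of overlap. Named genes were all members plus fixed lists, with at most 4 called genes per list, and the genes most like the members; some genes and sequences that these rules select are not reported here. The members and lists were chosen with earlier results of these data known. Counting floors (3 counts) and exact intervals cover counting error only. Sequences were read from the GRCm38 RefSeq genome.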

Additional observations from a re-analysis of the deposited data

How the results depend on the processing

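Alternatives were another scaling, DESeq2, limma on log2(TPM + 1) and log2(TPM + 0.1), no filter, fits of 2 tissues only, the replicate number as a block, and leaving out each library. Of 865 refitted log2 fold changes of single members, 753 kept their direction and side of the threshold, 61 lost it, 38 gained it and 13 changed sign. None of the sign changes was of a called value. They were Hoxb2 between A-MSCs and P-MSCs (-0.02 with either pseudocount), Hoxb7 in the same comparison (-0.13 and -0.14, and -0.07 to 0.15 when leaving out a library), Hoxb9 between bone marrow and non-bone marrow (-0.16 with a pseudocount of 0.1, -0.09 with the replicate block, and -0.43 to 0.59), Hoxb3 between vBM-MSCs and P-MSCs (0.13 with the replicate block, and -0.73 to 0.35) and Hoxb2 in that comparison (-0.38 to 0.17). The cause was not tested.

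The number of members called ranged, when leaving out 1 library, from 3 to 6 over the 4 tissues, 3 to 7 for fBM-MSCs against vBM-MSCs, 3 to 6 against A-MSCs, 4 to 6 against P-MSCs, 0 to 1 for vBM-MSCs against A-MSCs, 0 to 3 for vBM-MSCs against P-MSCs, 0 to 2 for A-MSCs against P-MSCs, and 2 to 5 for bone marrow. With only the compared tissues it was 1 for fBM-MSCs against vBM-MSCs, 3 against A-MSCs, 3 for vBM-MSCs against A-MSCs, 4 against P-MSCs and 3 for A-MSCs against P-MSCs, where fewer libraries gave the spread. limma on log2(TPM + 1) called 2, 2 and 3 in the last 3, and on log2(TPM + 0.1) 0, 0 and 1. Of the 12509 genes, the former called 2016 higher and 1265 lower, 2324 and 2776, and 1358 and 3155. The latter called 1991 and 1234, 2286 and 2683, and 1385 and 3058. For fBM-MSCs against vBM-MSCs, A-MSCs and P-MSCs, DESeq2 called 4, 4 and 5 members, and 1178, 2653 and 2947 of 12509 genes were lower in fBM-MSCs. limma called 6 members in each with log2(TPM + 1) (1219, 2321 and 3682 genes lower). With log2(TPM + 0.1) it called 7, 6 and 6 (1149, 2332 and 3619 genes lower). The fit of 2 tissues called 5 against P-MSCs, with 2947 of 12132 genes lower in fBM-MSCs. Against A-MSCs that fit had 2228 of 12128 genes lower. Without the filter, 1 member was called higher in vBM-MSCs than in P-MSCs, as were 2503 of 17496 genes. The replicate block left 3 members called lower in fBM-MSCs than in vBM-MSCs, as were 799 of 12509 genes. Same-numbered libraries had r of -0.028 to 0.125 over 15 pairs, 1 above 0.1, in deviations from tissue means. With means of 2 or 3 libraries, such values cannot show whether libraries of 1 mouse vary together. For fBM-MSC replicate 1 and the 2 vBM-MSC libraries they mirror each other (0.125 and -0.125). The libraries were not treated as pairs, although the tissues came from the same mice. Apart from fBM-MSCs against vBM-MSCs, the block changed only the count over the 4 tissues, from 5 to 4.

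With all summits as deposited, the members with a summit at the start were 3 for fBM-MSCs (59.3% of all genes), 6 for vBM-MSCs (59.7%) and 7 each for A-MSCs (60.3%) and P-MSCs (59.2%). At −log10 q of at least 20 they were 1 in each of vBM-MSCs, A-MSCs and P-MSCs (39.5, 40.6 and 41.2% of all genes) and 0 in fBM-MSCs (36.5%), and 2 of the 20 regions remained, both open in vBM-MSCs, A-MSCs and P-MSCs, with 0 in fBM-MSCs and 0 open in all 4. Depth limits Hoxb1, Hoxb4 and Hoxb13, which held at most 23 counts in a library. Peak lists without replicates give no error.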
